A study of Mus musculus with 5 samples.

Results

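The genes described here encode the proteins of the cytosolic ribosome. They were chosen by symbol, as Rpl or Rps followed by a digit, Rplp0, Rplp1, Rplp2 or Rpsa, without pseudogenes whose symbol contains -ps and without other genes whose symbol begins alike, such as the S6 kinases. Of 91 such symbols in the count table, 87 had at least 10 counts in at least 2 pools, among 14880 genes that did. They comprised 42 genes of the large 60S subunit, 31 of the small 40S subunit and 3 of the P stalk, which together are called core genes here, 4 paralogs of core genes (Rpl3l, Rpl22l1, Rpl36al and Rps27l) and 7 retrocopies, which are annotated as processed pseudogenes or carry rt in their symbol. PolyA RNA was sequenced from whole hearts of C57BL6/J mice at postnatal day 2, collected from littermates and pooled by genotype. The CharmeWT group had 3 pools of 9 hearts and the CharmeKO group 2 pools of 3 hearts, so the genotype and the number of hearts per pool cannot be told apart. In CharmeKO mice a PolyA signal was inserted into the locus of Charme, a muscle lncRNA, in every cell of the animal. The comparison asks how the transcriptome of the newborn heart differs when this lncRNA is lost.

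A cytosolic ribosome joins a 40S subunit, which reads the mRNA, to a 60S subunit, which forms the peptide bond. Each core protein is needed in about equal number, and their mRNAs are short and abundant. Most begin with a cytosine followed by a run of pyrimidines, the 5′ terminal oligopyrimidine (TOP) element, through which mTOR signalling controls their translation together. In heart and skeletal muscle a paralog, Rpl3l, replaces Rpl3 in part of the ribosomes after birth. The cardiomyocytes of the mouse make their last divisions in the days after birth and then grow in size.

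Promoter sequences of RefSeq (GRCm38.p6, 250 bases before to 50 bases after an annotated start) were found for 63 of the 87 genes. A run of at least 8 pyrimidines (C or T) lay between 50 bases before and 50 bases after a start in 53 of the 63, against 39.3% of the 27025 genes in that table. The base at the start was a C followed by 4 pyrimidines in 15 of the 63, against 3.01% of all genes. The windows below are shown because they put that run, in capitals, beside the differences between genotypes given further on. The first 4 belong to genes with higher values in CharmeKO pools, the next 4 to core genes whose log2 fold change lay between -0.22 and 0.06, and the last to the muscle paralog. All are written 5′ to 3′ on the strand of the gene.
Rps26 (chr10:128626485-128626514, minus strand): aagccgccggaTCCTCTTTCgagtcttggc
Rps6 (chr4:86857349-86857378, minus strand): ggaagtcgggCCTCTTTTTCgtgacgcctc
Rpl27a (chr7:109519186-109519215, plus strand): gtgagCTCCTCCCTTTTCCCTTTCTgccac
Rpl22l1 (chr3:28805499-28805528, plus strand): cgcaagcccgTTCTCTTCCCacggctgcag
Rpl14 (chr9:120571501-120571530, plus strand): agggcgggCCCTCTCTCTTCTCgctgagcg
Rpl28 (chr7:4792952-4792981, plus strand): gcctctcgtgTCTCTCTTTCCgtctccggc
Rplp2 (chr7:141447636-141447665, plus strand): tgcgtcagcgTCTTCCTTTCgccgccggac
Rps9 (chr7:3704024-3704053, plus strand): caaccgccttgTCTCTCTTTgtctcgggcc
Rpl3l (chr17:24727846-24727875, plus strand): tggtggggaggCCCCTTCCTaacctgcagg

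With the annotated start counted as base 1, the run began at base 4 in Rps26 and at base 32 in Rpl3l. Another annotated start of Rpl3l, not shown, had a longest run of 4 pyrimidines. The run began 1 base before the start in Rps6, 5 bases before it in Rplp2 and 6 bases before it in Rps9. In the whole 300-base sequences, searched on both strands, the letters CCGGAAG, the core bound by ETS factors such as GABP, were found for 25 of the 63 genes and for 9.93% of all genes. The reverse strand of those letters begins with pyrimidines, so a match can overlap a pyrimidine run. The letters ATGGCGGC, part of the element bound by YY1, were found for 4 of the 63 and for 2.61% of all genes. The median log2 fold change was 0.54 in the 53 genes with a pyrimidine run and 0.55 in the 10 without, and 0.56 with CCGGAAG and 0.53 without. It was 0.45 in the 15 genes with a C and 4 pyrimidines at the start and 0.56 in the other 48, and 0.34 in the 4 genes with ATGGCGGC and 0.55 in the other 59. These differences were not tested. A match of letters is a description of the window and not a binding site.

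The pools held from 16721055 to 21646378 counted fragments. Charme itself had 810, 183 and 276 counts in CharmeWT pools 1 to 3 and 57 and 79 counts in CharmeKO pools 1 and 2. The 2 CharmeKO pools differed from each other. Genes of the mitochondrial genome took 21.1% of the counts in CharmeKO pool 1 and 9.68% to 11.1% in the other 4 pools, and 13 genes typical of the salivary gland took 2.65% in CharmeKO pool 2, 0.0295% in CharmeKO pool 1 and at most 0.000397% in a CharmeWT pool. The markers of cardiomyocytes were high in every pool, with 12 of 12 tested genes detected and a summed level between 54895 and 68515 CPM (counts per 1000000 after TMM normalisation). The shift of the 87 genes and the medians of several gene lists are therefore also given without either CharmeKO pool. Such a fit holds 1 CharmeKO pool, which is assumed to vary as the CharmeWT pools do.

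Ribosomal protein genes were higher in CharmeKO hearts almost without exception, by a modest amount. The log2 fold change, CharmeKO over CharmeWT, was above 0 for 82 of the 87 genes (78 when scaled by library size only) and had a median of 0.54, or 1.46-fold, against a median of 0.023 over all 14880 genes, of which 51.8% were above 0. Both CharmeKO pools lay above every CharmeWT pool for 68 of the 87 genes (17.8% of all genes) and below every CharmeWT pool for 2 (18.2% of all genes). Gene by gene, the difference seldom passed the test. A call here means an adjusted p below 0.1 where either genotype averages 1 FPKM or more. By that rule edgeR's quasi-likelihood test called 1 member higher, Rpl30 (1.53% of all genes were called higher), and 0 lower (0.524% of all genes). At an unadjusted p under 0.05, 60 of the 87 were higher (10.6% of all genes) and 1 was lower (8.01% of all genes). In a bulk sample, more cells rich in these mRNAs and more of these mRNAs per cell cannot be told apart.

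The shift was present in both CharmeKO pools, at different size. Against the mean of the CharmeWT pools, the median member stood at a log2 difference of 0.70 in CharmeKO pool 1 and 0.37 in CharmeKO pool 2, and at 0.21, -0.048 and -0.14 in CharmeWT pools 1 to 3. CharmeWT pool 1 was thus the highest of its group for most members, with 83 of 87 above the CharmeWT mean, while 2 of 87 were above it in CharmeWT pool 3. In CharmeKO pool 1 81 of 87 members were above that mean, and in CharmeKO pool 2 84 of 87. Without CharmeKO pool 2, with the spread taken from the CharmeWT pools alone, the test called 67 members higher (16.1% of all genes) and 1 lower, Rps4l (15.6% of all genes), with a median of 0.68. In the like fit without CharmeKO pool 1 it called 1 higher (3.06% of all genes), with a median of 0.36.

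**Figure D1:**
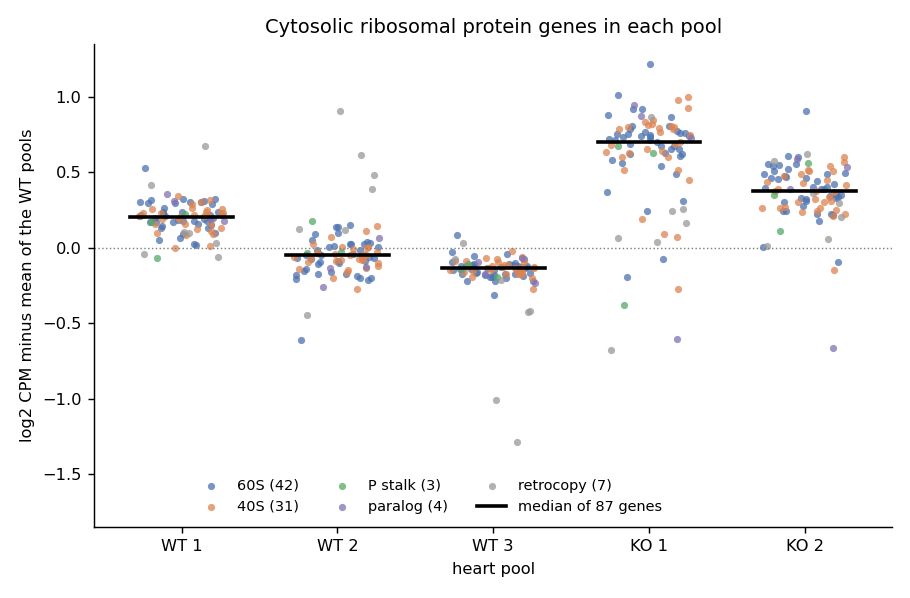
Each point is 1 of the 87 genes in 1 heart pool. The y axis gives its log2 CPM minus the mean log2 CPM of the 3 CharmeWT pools, colours give the role of the gene, and black bars the median of the 87 genes in each pool. The medians of CharmeKO pools 1 and 2, at 0.70 and 0.37, lie above those of all CharmeWT pools, of which pool 1 is the highest at 0.21.

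As a share of all gene counts, which needs no normalisation between genes, the 87 genes took 4.13%, 3.48% and 3.46% in CharmeWT pools 1 to 3 and 4.70% and 4.72% in CharmeKO pools 1 and 2. The group means were 3.69% ± 0.380 (SD, n = 3) and 4.71% ± 0.0150 (SD, n = 2), and the groups did not overlap. When mitochondrial and salivary gland genes were left out of the total, the shares were 4.64%, 3.90% and 3.88% against 5.96% and 5.39%. The 60S genes took 1.85% ± 0.203 (SD, n = 3) and 2.39% ± 0.0117 (SD, n = 2), and the 40S genes 1.54% ± 0.152 (SD, n = 3) and 1.95% ± 0.0188 (SD, n = 2), so both subunits shared in the difference.

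Markers of some other cells also differed between the pools. The summed level of 9 erythroid marker genes was 1371, 1034 and 1081 CPM in CharmeWT pools 1 to 3 and 2393 and 1753 CPM in CharmeKO pools 1 and 2. Among the CharmeWT pools it was thus highest in pool 1, and of the 8 tested genes of the list 7 were higher in CharmeKO pools and 3 were called. A list of 9 nuclear RNAs summed to 304, 134 and 178 CPM against 545 and 367 CPM, and 10 fat markers to between 533 and 707 CPM in 4 pools and 2085 CPM in CharmeKO pool 2. Of 10 macrophage markers, 8 were higher, with sums of 180, 112 and 149 CPM against 152 and 254 CPM. Of 9 tested skeletal muscle markers all 9 were higher and 2 were called, with sums of 2998 to 3855 CPM in CharmeWT pools and 4181 and 3754 CPM in CharmeKO pools. Only 3 of 10 endothelial markers and 3 of 10 markers of smooth muscle and pericytes were higher, with median log2 fold changes of -0.28 and -0.52. The endothelial sums overlapped, with 1768, 1869 and 1825 CPM against 1594 and 2150 CPM. So did those of smooth muscle and pericytes, with 1345, 2337 and 1473 CPM against 1613 and 1810 CPM, and 1 marker was called higher. Of 10 fibroblast markers 9 were higher, with a median of 0.086 and sums of 4960, 4130 and 4356 CPM against 4806 and 5938 CPM. The part of these cells and of RNA quality in the level of ribosomal protein mRNAs was not tested.

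Per length, core genes lay within a wide range, with the length taken from 1 reference transcript per gene. The median level was 512 FPKM in CharmeWT and 719 FPKM in CharmeKO hearts over the 42 genes of the 60S subunit, and 687 and 950 FPKM over the 31 genes of the 40S subunit. Rpl41, Rplp1 and Rps24 were the most abundant members, with 2694, 2627 and 2084 FPKM in CharmeKO hearts, and the retrocopies Rps3a3, Rpl32l and Rpl6l the least, with 1.18 to 1.72 FPKM in either genotype. The paralogs were below the median core gene, from 6.07 FPKM for Rpl3l to 137 FPKM for Rps27l in CharmeWT hearts.

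All 42 tested genes of the 60S subunit were higher in CharmeKO pools under TMM normalisation, with a median of 0.54 on the log2 scale, except that Rpl28, Rpl14, Rpl3 or Rpl22 were below 0 in some alternatives. Library size as the only scaling put Rpl28, Rpl14 and Rpl3 below 0, the length and GC correction Rpl14 and Rpl22, the replicate block Rpl28, and leaving out 1 pool any of these 4. Rpl30, a large subunit protein that in yeast also represses splicing of its own transcript, stood apart from the others. Rpl30 (ENSMUSG00000058600, chr15:34440505-34443640, minus strand, GRCm38) had 179, 180 and 148 CPM in CharmeWT pools and 391 and 315 CPM in CharmeKO pools. Both CharmeKO pools were far above the CharmeWT pools, and the log2 fold change was 1.06 ± 0.184 (SE; edgeR quasi-likelihood, adjusted p = 0.0419). It was called by the likelihood ratio test (adjusted p = 0.000209) and by DESeq2 (7.18e-05) as well, and after correction for transcript length and GC content (0.0612). The call was lost without CharmeWT pool 1 (adjusted p = 0.167) or CharmeWT pool 3 (0.289), with log2 fold changes of 1.11 and 0.98.

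After Rpl30 the 60S genes with the largest log2 fold changes were Rpl23a, Rpl6 and Rpl10, none of which passed the test. Rpl23a, which lies at the exit of the peptide tunnel where the signal recognition particle docks, had 615, 449 and 438 CPM in CharmeWT pools and 998 and 703 CPM in CharmeKO pools (log2 fold change 0.76 ± 0.232 SE, adjusted p = 0.155). The lower CharmeKO pool was above the highest CharmeWT pool by less than the CharmeWT pools differed among themselves. Rpl10, whose loading completes the 60S subunit, had 642, 466 and 476 CPM against 986 and 793 CPM (0.75 ± 0.216 SE, adjusted p = 0.144). By the likelihood ratio test, which the study used, Rpl23a (adjusted p = 0.0652) and Rpl10 (0.0511) were called. In all, that test called 21 of the 87 members higher (3.92% of all genes) and 0 lower (2.35% of all genes), and DESeq2 called 31 higher (4.33% of all genes) and 0 lower (3.21% of all genes).

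Rpl5 and Rpl11 carry the 5S rRNA into the 60S subunit and, outside the ribosome, bind Mdm2 and thereby stabilise p53. Rpl5 had 748, 536 and 553 CPM in CharmeWT pools and 985 and 799 CPM in CharmeKO pools, a log2 fold change of 0.54 ± 0.219 (SE). Rpl11 had 461, 392 and 375 CPM against 649 and 516 CPM, a log2 fold change of 0.51 ± 0.194 (SE). The CharmeKO pools were above the CharmeWT pools for both genes, and neither passed the test (adjusted p = 0.238 and 0.217). Rpl41, which encodes the shortest protein of the ribosome, had 846, 779 and 647 CPM in CharmeWT pools and 1252 and 1102 CPM in CharmeKO pools. The groups did not overlap, and its log2 fold change was 0.64 ± 0.205 (SE, adjusted p = 0.170).

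**Figure D2:**
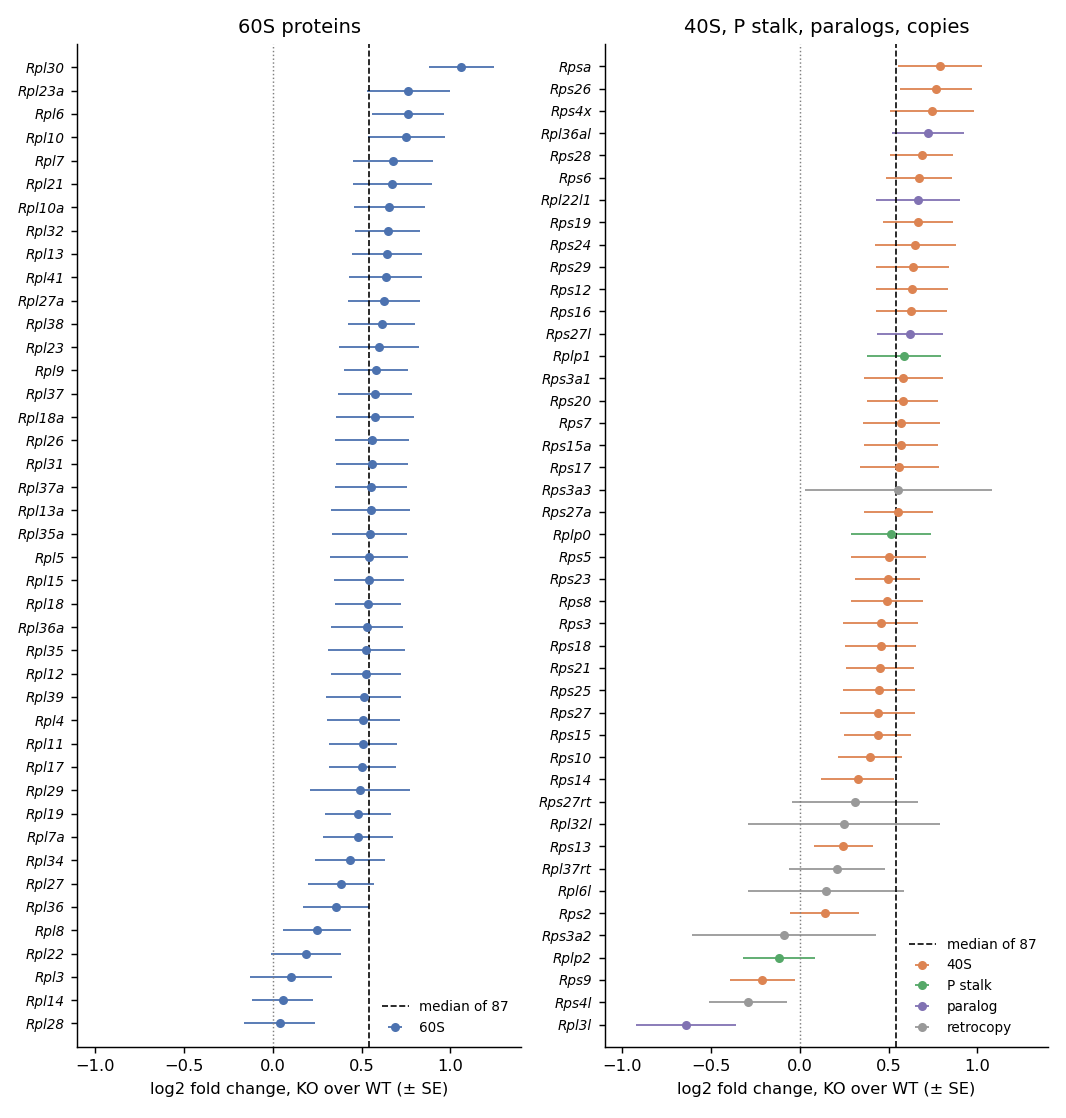
Each point is the log2 fold change, CharmeKO over CharmeWT, of 1 of the 87 genes with its standard error from edgeR's quasi-likelihood test, with 1 gene left out of the plot, ordered within 60S genes on the left and within all other members on the right. The dashed line marks the median of the 87 genes, 0.54. Rpl30 lies highest at 1.06, and Rpl3l lies lowest at -0.64.

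Of the 31 genes of the 40S subunit 30 were higher in CharmeKO pools, the median log2 fold change being 0.55, and 0 passed the test. Of these, Rps2 was below 0 when scaled by library size only. Rps25 moved from 0.45 to -0.017 with the replicate block together with the length and GC correction. Rpsa, the 40S protein also known as the laminin receptor precursor, had the highest log2 fold change of the 40S genes. It had 1178, 1187 and 889 CPM in CharmeWT pools and 2148 and 1594 CPM in CharmeKO pools. The groups did not overlap (log2 fold change 0.79 ± 0.236 SE, adjusted p = 0.154). Rps26, which contacts the mRNA where it leaves the 40S subunit, had 458, 384 and 340 CPM against 744 and 594 CPM (0.76 ± 0.203 SE, adjusted p = 0.124). Rps6, the substrate of the S6 kinases downstream of mTOR, had 369, 312 and 314 CPM against 583 and 471 CPM (0.67 ± 0.187 SE, adjusted p = 0.137). All of these are values of single genes that the quasi-likelihood test did not call, and the likelihood ratio test called Rpsa (adjusted p = 0.0476), Rps26 (0.0358) and Rps6 (0.0574).

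Rps19 and Rps24, both needed to mature the 18S rRNA, had log2 fold changes of 0.66 ± 0.195 and 0.65 ± 0.229 (SE). Rps4x, which is encoded on the X chromosome, had 965, 707 and 687 CPM in CharmeWT pools and 1528 and 1106 CPM in CharmeKO pools, without overlap (0.74 ± 0.238 SE, adjusted p = 0.167). Rps3, which lines the entry of the mRNA channel and also acts in DNA repair, had 682, 581 and 540 CPM against 943 and 704 CPM, so that CharmeKO pool 2 stood just above CharmeWT pool 1 (0.45 ± 0.210 SE, adjusted p = 0.280). Mutations of 18 of the core genes in the list used here, among them Rps19, Rps26 and Rpl5, cause Diamond-Blackfan anaemia in people. All 18 were higher in CharmeKO pools, the median log2 fold change being 0.55, which is also the size seen in 40S genes as a whole, and 0 were called.

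The P stalk recruits elongation factors to the ribosome and is built of Rplp0 and pairs of Rplp1 and Rplp2. Its 3 genes did not move alike. Rplp0 had 1593, 1380 and 1284 CPM in CharmeWT pools and 2254 and 1799 CPM in CharmeKO pools, and Rplp1 had 1014, 849 and 758 CPM against 1340 and 1282 CPM. For both genes the CharmeKO pools were the highest, with log2 fold changes of 0.51 ± 0.225 and 0.59 ± 0.209 (SE) and adjusted p of 0.262 and 0.197. Rplp2, the partner of Rplp1, had 257, 306 and 251 CPM in CharmeWT pools and 208 and 292 CPM in CharmeKO pools. The Rplp2 values of the genotypes overlapped, and its log2 fold change was -0.12 ± 0.202 (SE, adjusted p = 0.779), which became 0.11 without CharmeKO pool 1.

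Rps9 was the 40S gene with a log2 fold change below 0, and it was below 0 in all alternatives listed in the closing section as well. Rps9, which sits at the mRNA entry and bears on the accuracy of decoding, had 698, 627 and 621 CPM in CharmeWT pools and 535 and 586 CPM in CharmeKO pools. Both CharmeKO pools were below the CharmeWT pools, by a log2 fold change of -0.21 ± 0.184 (SE, adjusted p = 0.554) that did not pass the test. Core genes with values near 0, singled out after their values were seen, included Rpl28 at 0.039, Rpl14 at 0.055, Rpl3 at 0.10 and Rps2 at 0.14. With library size as the only scaling Rpl28 (-0.095), Rpl14 (-0.090), Rpl3 (-0.073) and Rps2 (-0.0089) were below 0, a scaling that moved the median of all genes to -0.13 and that of the 87 members to 0.37. The windows of Rpl28, Rpl14, Rplp2 and Rps9 shown above hold a pyrimidine run, as those of Rps26 and Rps6 do. Each window was drawn around the longest run near the start, so the presence of a run in it follows from that choice.

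**Figure D3:**
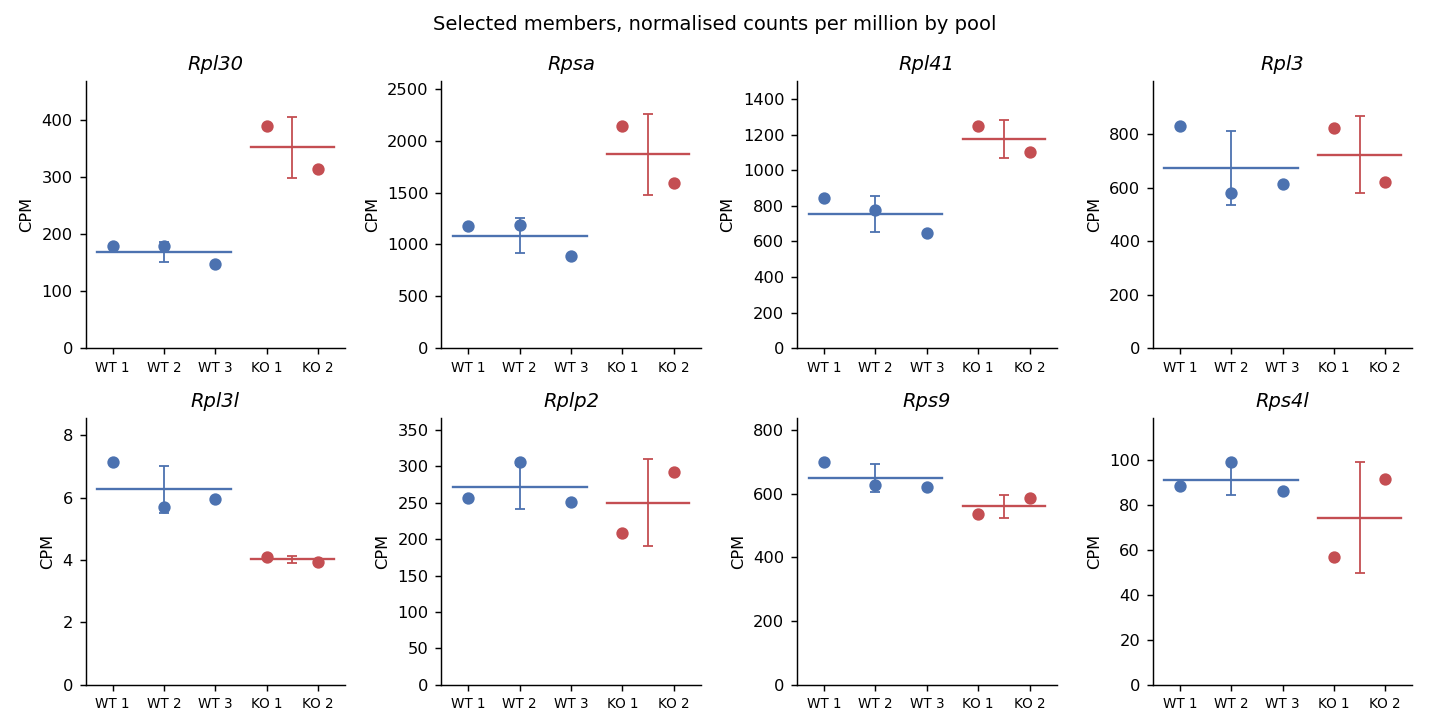
Points give the normalised level in CPM of 8 members in each pool, CharmeWT in blue and CharmeKO in red, with lines at the group means and bars of 1 SD (n = 3 and n = 2). The CharmeKO points of Rpl30, Rpsa and Rpl41 lie above all CharmeWT points, those of Rpl3l and Rps9 lie below them, and those of Rpl3, Rplp2 and Rps4l overlap with them.

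Paralogs can take the place of a core protein, and their ratio to that partner within a pool does not depend on how pools are scaled to each other. Rpl3l (ENSMUSG00000002500, chr17:24727820-24736143, plus strand, GRCm38) is made in heart and skeletal muscle only. It had the lowest log2 fold change of the 87 genes, with 7.13, 5.71 and 5.96 CPM in CharmeWT pools and 4.10 and 3.94 CPM in CharmeKO pools, from 147, 101 and 118 counts and 58 and 88 counts. Both CharmeKO pools were below the CharmeWT pools, and with a log2 fold change of -0.64 ± 0.280 (SE, unadjusted p = 0.0448, adjusted p = 0.259) the difference did not pass the test. It was between -0.70 and -0.54 with any 1 pool left out and -0.73 after correction for length and GC content.

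Per length, Rpl3l was at 1.12%, 1.29% and 1.27% of Rpl3 in CharmeWT pools and at 0.650% and 0.827% in CharmeKO pools. The mean log2 ratio was lower by 0.74 in CharmeKO hearts, or 0.599-fold, as log2 ratios of -6.35 ± 0.113 (SD, n = 3) and -7.09 ± 0.245 (SD, n = 2), without overlap. An exact two-sided permutation test over the 5 pools gave p = 0.1, which is the smallest that 3 against 2 pools allow, and 0.133 after adjustment over 4 pairs. Rpl3, which reaches the peptidyl transferase centre, had 833, 579 and 613 CPM against 825 and 623 CPM, with overlapping groups (log2 fold change 0.10 ± 0.230 SE, adjusted p = 0.835).

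The ratio of Rpl22l1 to Rpl22 moved the opposite way. It was 19.9%, 17.1% and 17.3% in CharmeWT pools and 26.9% and 23.6% in CharmeKO pools, higher by 0.48 on the log2 scale, with an exact permutation p of 0.1 (0.133 adjusted). Rpl22l1, the less abundant relative of Rpl22, had 62.1, 40.7 and 45.5 CPM against 93.6 and 63.5 CPM, so that CharmeKO pool 2 was close to CharmeWT pool 1 (log2 fold change 0.67 ± 0.237 SE, adjusted p = 0.197). After correction for length and GC content it was 0.01. Rpl22 had 281, 214 and 238 CPM against 314 and 243 CPM, with a log2 fold change of 0.19 ± 0.196 (SE, adjusted p = 0.625) that became -0.17 after that correction.

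Rpl36al encodes a protein nearly identical to that of Rpl36a and had 28.6%, 26.4% and 26.7% of its level in CharmeWT pools and 30.0% and 32.8% in CharmeKO pools (exact permutation p = 0.1, 0.133 adjusted). Its own log2 fold change was 0.72 ± 0.202 (SE, adjusted p = 0.137), and that of Rpl36a 0.53 ± 0.201 (SE), or 0.50 and 0.14 after correction for length and GC content. On the same strand 63.1% of the Rpl36al transcript is overlapped by exons of Gm49383, so its level and this ratio may carry the limit given for Rpl13a further on. Rps27l, a target of p53, was at 13.1%, 18.0% and 12.3% of Rps27 against 15.5% and 16.7%, with overlapping groups (exact permutation p = 0.5). Its log2 fold change was 0.62 ± 0.185 (SE, adjusted p = 0.152) and that of Rps27 0.44 ± 0.213 (SE), or 0.18 and 0.24 after that correction. Of the other pairs planned, Rpl10l had 0 counts in every pool and Rpl39l had 7, 4 and 5 counts against 6 and 52 counts, so their ratios to Rpl10 and Rpl39 were not tested.

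**Figure D4:**
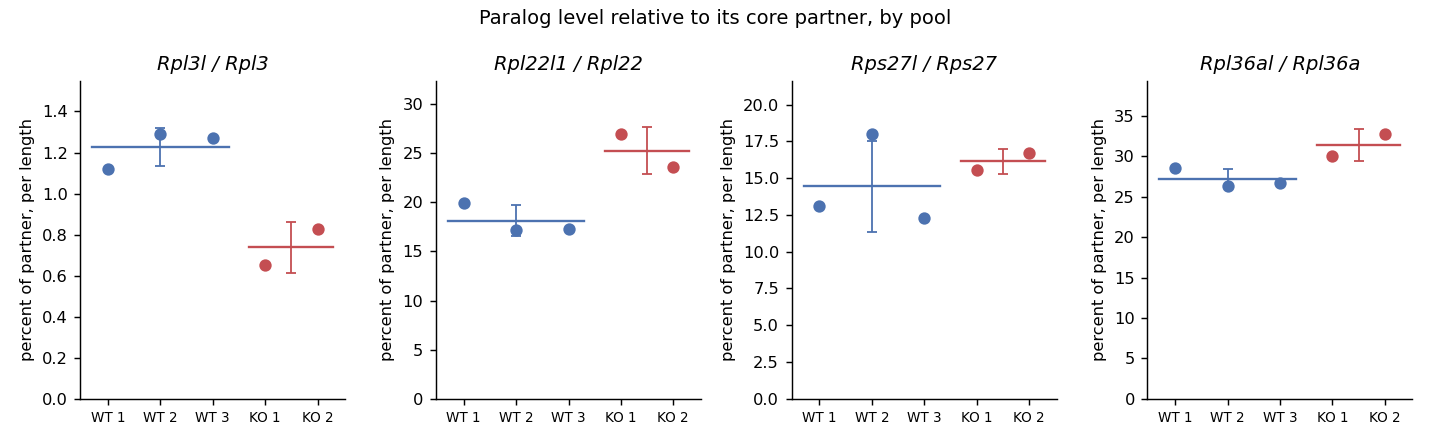
The y axis gives the level of each paralog per length as a percentage of its core partner in each pool, CharmeWT in blue and CharmeKO in red, with lines at the group means and bars of 1 SD (n = 3 and n = 2). The CharmeKO points lie below all CharmeWT points for Rpl3l and above them for Rpl22l1 and Rpl36al, and they overlap for Rps27l.

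Across the 7 retrocopies the median log2 fold change was 0.21 (0.026 without CharmeKO pool 2 and 0.27 without CharmeKO pool 1), and for 0 of them did the groups separate. Rps4l, the most abundant, had 88.3, 98.9 and 86.1 CPM in CharmeWT pools and 56.8 and 91.7 CPM in CharmeKO pools, low in CharmeKO pool 1 alone (log2 fold change -0.29 ± 0.220 SE, adjusted p = 0.486). The others lay far lower, with Rpl32l at 10, 11 and 7 counts against 8 and 13 counts and Rpl6l at 20, 25 and 15 counts against 16 and 26 counts. Rps3a3 had 18, 27 and 8 counts against 21 and 28 counts, so its log2 fold change of 0.56 had a standard error of 0.526. Outside the 87 genes, 54 of 269 ribosomal protein pseudogenes with -ps in their symbol were tested, with a median of 0.21 and 0 called. That median was -0.14 without CharmeKO pool 2 and 0.38 without CharmeKO pool 1.

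Ribosomal protein mRNAs share long stretches with such copies, and only fragments mapped to 1 place were counted. For 36 members over 50% of the 100-base windows of the transcript occurred in another annotated transcript, and their median log2 fold change was 0.52. For 25 members at most 25% did, and their median was 0.51. Rpl24 had 6, 3 and 4 counts against 5 and 8 counts and was not tested. On the same strand 71.5% of its transcript is overlapped by exons of Gm28037, which had 0 counts. Rpl13a had 308, 238 and 228 counts against 298 and 402 counts, with 59.3% overlapped by Gm45713, and its log2 fold change was 0.55 ± 0.221 (SE). Rps10 is overlapped over 91.6% of its transcript by RPS10-NUDT3, with a log2 fold change of 0.39 ± 0.181 (SE). Fragments that overlap exons of both genes are set aside in this way of counting, so the levels of Rpl24, Rpl13a, Rps10 and Rpl36al here can fall short of their mRNA. The overlaps come from the GENCODE M21 annotation, whereas the study counted fragments on an Ensembl annotation. Whether RPS10-NUDT3 and Gm49383 were among the genes counted was not checked, so for Rps10 and Rpl36al this limit is less certain.

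Short transcripts in general were higher in CharmeKO pools. The median log2 fold change was 0.24 over 1150 other protein-coding genes with a transcript under 1000 bases, 0.29 over the 205 of these with a mean of at least 100 CPM, 0.26 over 78 mitochondrial ribosomal protein genes and 0.03 over 1570 other genes of any length with at least 100 CPM. In CharmeKO pool 1 the median member was at 0.69 and the median of the 205 short abundant genes at 0.45, both on the scale log2 of CPM plus 0.5 against the CharmeWT mean. In CharmeKO pool 2 the values were 0.37 and 0.10. The mitochondrial ribosomal protein genes were at 0.42 and 0.11.

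**Figure D5:**
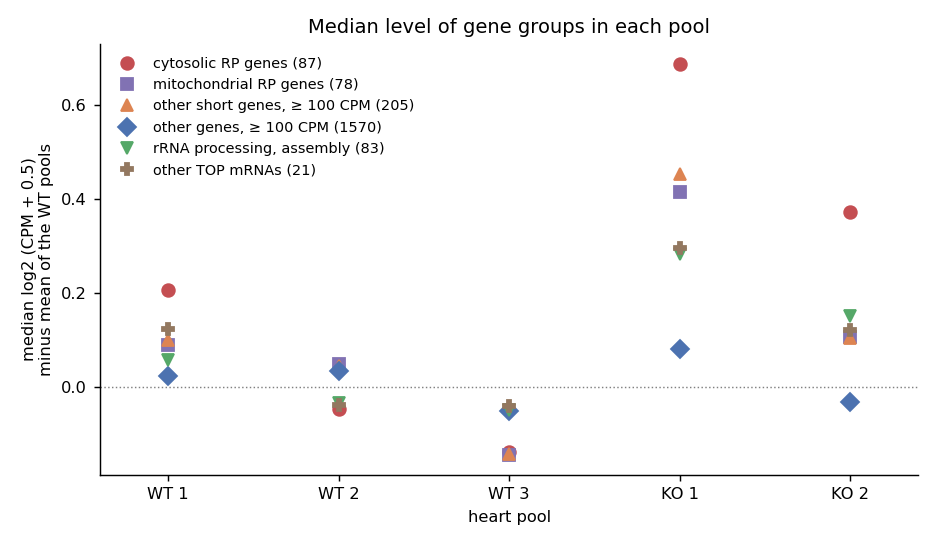
Each symbol is the median over the genes of a group, in 1 pool, of log2 of CPM plus 0.5 minus the mean of the 3 CharmeWT pools. In CharmeKO pools 1 and 2 the cytosolic ribosomal protein genes (RP) lie highest, at 0.69 and 0.37, and other abundant short genes lie at 0.45 and 0.10.

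GC content went along with the values of other genes more than with those of the members. Among other genes of like length and at least 10 CPM, the median log2 fold change was 0.34 in the GC range of the core genes of low GC, 0.17 in that of middle GC and 0.00 in that of high GC, with core genes split into groups of like size. These groups of core genes themselves had medians of 0.57, 0.55 and 0.49. With a trend on length and GC content, fitted in each pool on genes outside the 87, taken out as an offset, the median of the members was 0.33, with 79 of 87 above 0, against -0.03 over all genes. The corrected medians of the low, middle and high GC core genes were 0.28, 0.41 and 0.45, and 1 member, Rpl30, was called. For 41 of the 82 genes above 0 the corrected log2 fold change was below 0 or smaller by over 1.5 times.

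Genes that make and run the ribosome were set beside its proteins, from lists that, like the members, were chosen with earlier results of these data known. Rack1, a 40S protein that anchors kinases and whose symbol falls outside the rule, had 805, 721 and 639 CPM in CharmeWT pools and 1099 and 986 CPM in CharmeKO pools (log2 fold change 0.53 ± 0.198 SE, adjusted p = 0.213). Fau, from which the 40S protein of that name is cut, was also highest in the CharmeKO pools, with 303, 254 and 266 CPM against 367 and 342 CPM. Of 21 genes of RNA polymerase I and its factors 0 were called and the median log2 fold change was 0.16, and of 83 genes that process rRNA or assemble subunits 0 were called, with a median of 0.17. Without CharmeKO pool 2 these medians were 0.33 and 0.28, and without CharmeKO pool 1 they were 0.15 and 0.15. Among the latter the nucleolar chaperone Npm1 had 349, 225 and 276 CPM against 563 and 330 CPM, with overlapping groups (0.66 ± 0.260 SE, adjusted p = 0.231).

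Of 36 initiation factors 1 was called higher (1.53% of all genes were), with a median of 0.11 over the list. This was Eif1a, which helps the 40S subunit scan for the start codon, with 32.2, 26.5 and 27.4 CPM in CharmeWT pools and 58.7 and 46.6 CPM in CharmeKO pools. Its groups were apart (log2 fold change 0.87 ± 0.194 SE, adjusted p = 0.0773), and the call was lost without any 1 of the CharmeWT pools and after correction for length and GC content, where the log2 fold change was 0.43. The helicase Eif4a1 had 490, 473 and 406 CPM against 770 and 682 CPM, also without overlap (0.67 ± 0.186 SE, adjusted p = 0.136). Of 12 elongation and release factors 0 were called. Eef1a1, which brings aminoacyl-tRNA to the ribosome, had a log2 fold change of 0.20 ± 0.269 (SE), and Eef2, which moves the ribosome along the mRNA, was lower in both CharmeKO pools than in all CharmeWT pools, with 2900, 2809 and 2945 CPM against 1877 and 2405 CPM (-0.43 ± 0.242 SE, adjusted p = 0.361).

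Eef1a1 and Eef2 are themselves TOP mRNAs. For the 21 TOP mRNAs outside the ribosomal protein genes the median log2 fold change was 0.20, with 0 called, and it was -0.01 after correction for length and GC content, where the members were at 0.33. Of 25 tested genes of mTOR signalling and of regulators of these genes 0 were called, with a median of -0.11, and of 24 p53 targets 0, with a median of 0.092. The median of the mTOR list was -0.39 without CharmeKO pool 2 and -0.048 without CharmeKO pool 1, and that of the p53 targets 0.074 and 0.026. That of the TOP mRNAs was 0.29 and 0.12. Ccng1, an abundant p53 target, had 243, 255 and 180 CPM in CharmeWT pools and 440 and 179 CPM in CharmeKO pools, high in CharmeKO pool 1 alone.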

How the data were processed

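RNA-seq was analysed from 5 pools of postnatal day 2 hearts, 3 CharmeWT and 2 CharmeKO, grouped by the labels. According to the study's methods and processing notes, the authors trimmed the reads with cutadapt, aligned them to GRCm38 (mm10) with STAR and counted uniquely mapped fragments per gene. The deposited values are raw counts for 49671 genes. A deposited FPKM table was not used, and FPKM was computed from the counts with the length of a representative GENCODE M21 transcript, so levels of different genes are compared roughly. Names and positions came from the same annotation, which matched 49411 genes.

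Genes that reached 10 counts in 2 or more pools were normalised by TMM and tested for genotype with edgeR's quasi-likelihood test (edgeR 4.0.16, R 4.3.3), with Benjamini-Hochberg adjustment over 14880 genes. A call needed an adjusted p below 0.1 where either genotype averaged 1 FPKM or more. The study itself used the likelihood ratio test; the other settings follow its methods. The standard error is the size of the log2 fold change over the square root of F. Paralog ratios were compared with exact two-sided permutation tests over the 5 pools. The main fit and the fit with the length and GC correction were tested on simulated counts, and the other alternatives were not. The value of 1 member is not reported here by itself. The members and lists were chosen with earlier results of these data known. Named members were the paralogs and their partners, members called, and the 4 with the highest and the 4 with the lowest log2 fold change. They also included the 3 with the highest and the 3 with the lowest FPKM, and members with well-known roles. Other members named for low counts, overlap, spread, changes of sign or values near 0 were chosen after their values were seen. Named genes of the companion lists were drawn from the 2 most abundant and those called. Hearts of littermates were pooled and the sources used here do not say which litters entered a pool, so p-values measure the spread between pools only. The reads carry no molecular identifiers. Alternatives were the likelihood ratio test, DESeq2 1.42.0, the legacy quasi-likelihood test, other normalisations and filters, the replicate number as a block, a correction for transcript length and GC content (splines of 4 degrees of freedom per pool), both together, leaving out mitochondrial and salivary gland genes, and each pool left out.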

Additional observations from a re-analysis of the deposited data

How the results depend on the processing

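The number of members called higher, 1 in the report, was 31 by DESeq2, 21 by the likelihood ratio test and 0 with the replicate block together with the length and GC correction, and between 0 and 67 with a pool left out, 0 without CharmeWT pool 1 or pool 3 and 67 without CharmeKO pool 2. The number called lower was between 0 and 1 with a pool left out. Under the replicate block alone 1 member was called, with a median of 0.45. The replicate numbers share only a number between the genotypes (2 shared, correlation of deviations 0.137 and 0.0778). The median log2 fold change, 0.54, was 0.33 with the length and GC correction and 0.34 with the block added, and between 0.36 and 0.68 with a pool left out. The share of counts differed by 1.03 percentage points between genotypes, by 1.53 without mitochondrial and salivary gland genes, and by 0.911 to 1.24 with a pool left out. The log2 ratio of Rpl3l to Rpl3 lay between -0.91 and -0.57 with a pool left out, the lowest without CharmeKO pool 2 and the highest without CharmeKO pool 1, that of Rpl22l1 to Rpl22 between 0.38 and 0.58, that of Rps27l to Rps27 between 0.07 and 0.35, and that of Rpl36al to Rpl36a between 0.14 and 0.27. Of the companion lists 1 gene was called in the report, 6 by the likelihood ratio test, 16 by DESeq2, 0 with the length and GC correction, 0 with the replicate block, and 0 to 91 with a pool left out, 91 without CharmeKO pool 2. Among all genes, 16.1% were called higher and 15.6% lower without CharmeKO pool 2, against 1.53% and 0.524% in the report. These shares were 3.92% and 2.35% by the likelihood ratio test, and 4.33% and 3.21% by DESeq2. The fit without CharmeKO pool 2 holds 1 CharmeKO pool and called many genes of all kinds. Its 91 calls are therefore not read as a result about the companion lists. The cause of the differences between settings was not tested.

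Signs changed for genes near 0, and also for Rps25, Rps27rt and Rps3a3, which were further from it. Rpl3 was at -0.073 by library size only, -0.020 with the block and the length and GC correction, and between -0.11 (without CharmeKO pool 1) and 0.28 with a pool left out. The length and GC correction put Rpl22 at -0.17, and at -0.10 with the block added, and it lay between -0.0069 (without CharmeKO pool 1) and 0.35 with a pool left out. Rpl6l was at -0.054 with the block, -0.14 with block and correction, and between -0.042 (without CharmeWT pool 3) and 0.41 with a pool left out. With block and correction Rpl32l was at -0.00128, Rps3a3 (0.56 in the main fit) at -0.10 and Rps25 (0.45 in the main fit) at -0.017. The length and GC correction put the retrocopy Rps27rt, at 0.31 in the main fit, at -0.033. With a pool left out Rplp2 lay between -0.39 and 0.11 and Rps4l between -0.69 and 0.0099, both highest without CharmeKO pool 1. Rpl14 was at -0.090 by library size only, -0.082 with the correction, -0.066 with the block added, and between -0.085 (without CharmeKO pool 2) and 0.18 with a pool left out. Rpl28 was at -0.095 by library size only, -0.045 with the block, and between -0.20 (without CharmeKO pool 2) and 0.24 with a pool left out, and Rps2 at -0.0089 by library size only. The retrocopy Rps3a2, at -0.089 in the main fit, was at 0.0070 without CharmeKO pool 2. It was at 0.21 without CharmeWT pool 1 and at 0.13 without CharmeWT pool 2. In all, 22 of 703 values of named members under an alternative reversed, a tally that leaves out Rps3a2, Rps25 and Rps27rt. Of the lowest retrocopies, with counts under 30 in every pool, Rps3a3 had a standard error of 0.526.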

Other observations

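Rpl3-ps1, a processed pseudogene of Rpl3, had 173, 715 and 347 counts in CharmeWT pools 1 to 3 and 1134 and 1372 counts in CharmeKO pools 1 and 2 (log2 fold change 1.68 ± 0.481 SE; edgeR quasi-likelihood, adjusted p = 0.143). It took 0.998%, 6.53% and 2.78% of the counts of Rpl3 and Rpl3-ps1 together in CharmeWT pools and 8.86% and 8.97% in CharmeKO pools. Both CharmeKO pools were above all CharmeWT pools, which differed widely from each other. Added to Rpl3, these counts gave 841, 619 and 630 CPM against 906 and 685 CPM.

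Rpl29, which helps to join the ribosomal subunits, was the core gene with the widest spread among CharmeWT pools, with 384, 174 and 283 CPM there and 398 and 391 CPM in CharmeKO pools. The log2 fold change was 0.49 ± 0.281 (SE, adjusted p = 0.369). Rpl39l, a paralog best known from the testis, had 52 counts in CharmeKO pool 2, where salivary gland and fat markers were also highest, and 4 to 7 counts in the other 4 pools. These genes were chosen after their values were seen.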
